A study of Mus musculus with 6 samples.

Results

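The mitochondrial ribosomal RNAs mt-Rnr1 (the small-subunit rRNA) and mt-Rnr2 (the large-subunit rRNA) held 86 of the 28728 JARID2 contact sites in the 2 deposited lists, and the same stretches of both RNAs carried most of the score before and after retinoic acid. At scores of at least 1000, rRNA sites recurred about as often as all sites of the lists. Sites were taken from the plus strand of the mitochondrial chromosome where they overlapped either RNA by at least 1 base. mt-Rnr1 (ENSMUSG00000064337.1, 955 bases) runs from chrM position 70 to the base before mt-Tv, which spans chrM:1025-1093, and mt-Rnr2 (ENSMUSG00000064339.1, 1582 bases) runs from the base after mt-Tv to the base before mt-Tl1, which starts at 2676. Both genes have no intron. The untreated list gave 41 of its 23380 sites (0.175%, exact 95% interval 0.126 to 0.238) and the treated list 45 of 5348 (0.841%, 0.614 to 1.12). In these intervals the number of sites stands in for depth, and they cover counting error only. The shares depend on how many low-scored sites a list holds. Sites at or above the lowest rRNA score of the same list (224 untreated, 260 treated) made up 4.90% of the untreated and 12.1% of the treated list. Of the summed list score, the rRNAs held 1.63% untreated and 1.45% treated.

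The data are PAR-CLIP of JARID2 in wild-type E14 cells, a single line of mouse embryonic stem cells grown with serum and LIF, with 3 libraries from cells left untreated and 3 from cells differentiated for 24 h in retinoic acid at 2 µM. All cells took up 4-thiouridine (500 µM for 2 h) and were then crosslinked with 400 mJ/cm2 of light at 312 nm, and JARID2 was pulled down with an in-house antibody. Each deposited list joins the 3 libraries of a condition, so there is 1 list per condition, no spread between replicates and no test between conditions. Each site has a whole-number score, and the sources used here do not say what it counts. The lists hold no RNA levels and no expression values, so abundance and contact cannot be told apart, and the cell type was not checked by markers.

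JARID2 is a nuclear partner protein of the Polycomb complex PRC2, which methylates histone H3. The mitochondrial rRNAs are the scaffolds of the mitochondrial ribosome, which translates the mRNAs of the mitochondrial genome in the matrix. They are cut from a long precursor transcript at the transfer RNAs that flank them, which are mt-Tf before mt-Rnr1, mt-Tv between the 2 rRNAs and mt-Tl1 after mt-Rnr2. In PAR-CLIP, 4-thiouridine crosslinks at U, which is written T below.

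The sequences that carried the highest scores are shown first, because the results turn on them. Each line gives the stretch covered by overlapping sites of either list, 5′ to 3′ on the RNA strand, from the GENCODE transcript sequences, with positions from 1. Capitals mark bases that lay in a site of both lists, and a line without capitals was listed in 1 condition only.
mt-Rnr1 chrM:146-173, both lists: ccttaaacatttACTTAAAATTTAagga
mt-Rnr1 chrM:328-353, both lists: gATTAACCCAAACTaattatCTTCGg
mt-Rnr1 chrM:609-619, both lists: ccATCTAGAGG
mt-Rnr1 chrM:935-961, both lists: aactTAACATAATTAATTTCTAGACat
mt-Rnr1 chrM:189-196, untreated only: attaaaat
mt-Rnr1 chrM:826-841, untreated only: aaactaaaggactaag
mt-Rnr1 chrM:767-787, treated only: tgaaatgggaagaaatgggct
mt-Rnr1 chrM:860-871, treated only: taagaatagaga
mt-Rnr2 chrM:1157-1183, both lists: cCTACTAAAAGTATTGGAGAAAGAAAT
mt-Rnr2 chrM:1232-1266, both lists: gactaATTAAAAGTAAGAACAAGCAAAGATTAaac
mt-Rnr2 chrM:1273-1335, both lists: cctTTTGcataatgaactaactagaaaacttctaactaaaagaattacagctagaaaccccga
mt-Rnr2 chrM:1358-1390, both lists: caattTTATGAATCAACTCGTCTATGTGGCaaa
mt-Rnr2 chrM:2102-2175, both lists: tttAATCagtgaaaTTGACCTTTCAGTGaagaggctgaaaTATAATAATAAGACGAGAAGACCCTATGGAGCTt
mt-Rnr2 from chrM:2655 to its last base, both lists: CCCTCTAACCTAGAGAaggtt
mt-Rnr2 chrM:2410-2425, untreated only: acaattagggtttacg
mt-Rnr2 chrM:2430-2439, treated only: cgatgttgga
The treated site of the stretch that starts at chrM:2655 ran on to 2692 in mt-Tl1.

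Sites on the rRNAs had high scores within both lists. The lowest was 224 untreated and 260 treated, where the whole lists had medians of 17 and 23. Scores of at least 1000 were found for 28 of the 41 untreated sites (68.3%) and 22 of the 45 treated sites (48.9%), against 2.17% and 6.23% of all sites. The highest-scored rRNA site ranked 123 in the untreated list and 102 in the treated list, so none was among the top 100 sites of a list.

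mt-Rnr1 held 21 untreated sites with scores from 225 to 10884 (median 1491) and 22 treated sites with scores from 260 to 8356 (median 1069). The site with the highest score in each list lay near the 5′ end. It spanned chrM:158-173 untreated, at 10884, and 146-169 treated, at 8356, and the 12 bases in capitals above were common to both. It alone made up 19.1% of the score of the RNA untreated and 20.6% treated.

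The next sites of mt-Rnr1 came in the same order in both lists. The second lay at chrM:328-353 in the untreated list with a score of 7418, and at 348-352 in the treated list with 5350. The third lay at chrM:939-961 with 6381 untreated and at 935-959 with 4865 treated. The fourth lay at chrM:611-619 with 4939 and at 609-619 with 3403. The fifth differed, being chrM:189-196 untreated (4473) and chrM:767-787 treated (2889), and each of these had no overlapping site in the other list. The 3 highest sites together held 43.4% of the untreated and 45.7% of the treated score.

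Counted in 100-base bins from the first base of mt-Rnr1, by the centre of each site, the score peaked in the first bin, with 21.4% untreated and 22.4% treated. Other peaks lay at bases 801 to 900, with 16.0% and 16.6%, and at 201 to 300, with 15.7% and 18.0%. Bases 301 to 400 held little in both lists, with 2.24% and 2.72%. The bins that differed most were 101 to 200, with 9.67% untreated and 1.75% treated, and 701 to 800, with 5.71% and 10.7%. Those are the bins of the sites named above that ranked 5 within mt-Rnr1 in the untreated and in the treated list.

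mt-Rnr2 held 20 untreated sites with scores from 224 to 9159 (median 1955) and 23 treated sites with scores from 281 to 4900 (median 852). Its highest score also lay at the same place in both lists, but as 1 long site untreated and several short ones treated. The untreated site spanned 70 bases, chrM:2105-2174, at 9159. In the treated list the same stretch held sites at chrM:2102-2108 (852), 2116-2129 (1511) and 2142-2175 (4900), which add up to 7263. That stretch made up 18.3% of the score of mt-Rnr2 untreated and 26.3% treated.

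The next sites of mt-Rnr2 agreed in place for the ranks 2 and 3 and differed after that. The second by score was chrM:1363-1387 untreated (4126) and 1358-1390 treated (3335). The third was chrM:2655-2670 untreated (4042) and 2655-2692 treated (2278), at the 3′ end of the RNA. Ranks 4 and 5 went to chrM:1276-1335 (3720) and 1232-1263 (3714) untreated, and to 1158-1183 (1624) and 2116-2129 (1511) treated. The 3 highest sites held 34.6% of the untreated and 38.1% of the treated score, less than in mt-Rnr1 in both lists. This order between the RNAs was not tested.

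By parts of equal length, mt-Rnr2 had 38.0% of its untreated score in the first part, 39.7% in the middle and 22.3% in the last. The treated shares were 32.5%, 31.3% and 36.2%. In mt-Rnr1 the first part led in both lists, with 46.7% untreated and 42.1% treated, the last held 30.1% and 32.5%, and the middle held 23.3% and 25.4%.

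**Figure D1:**
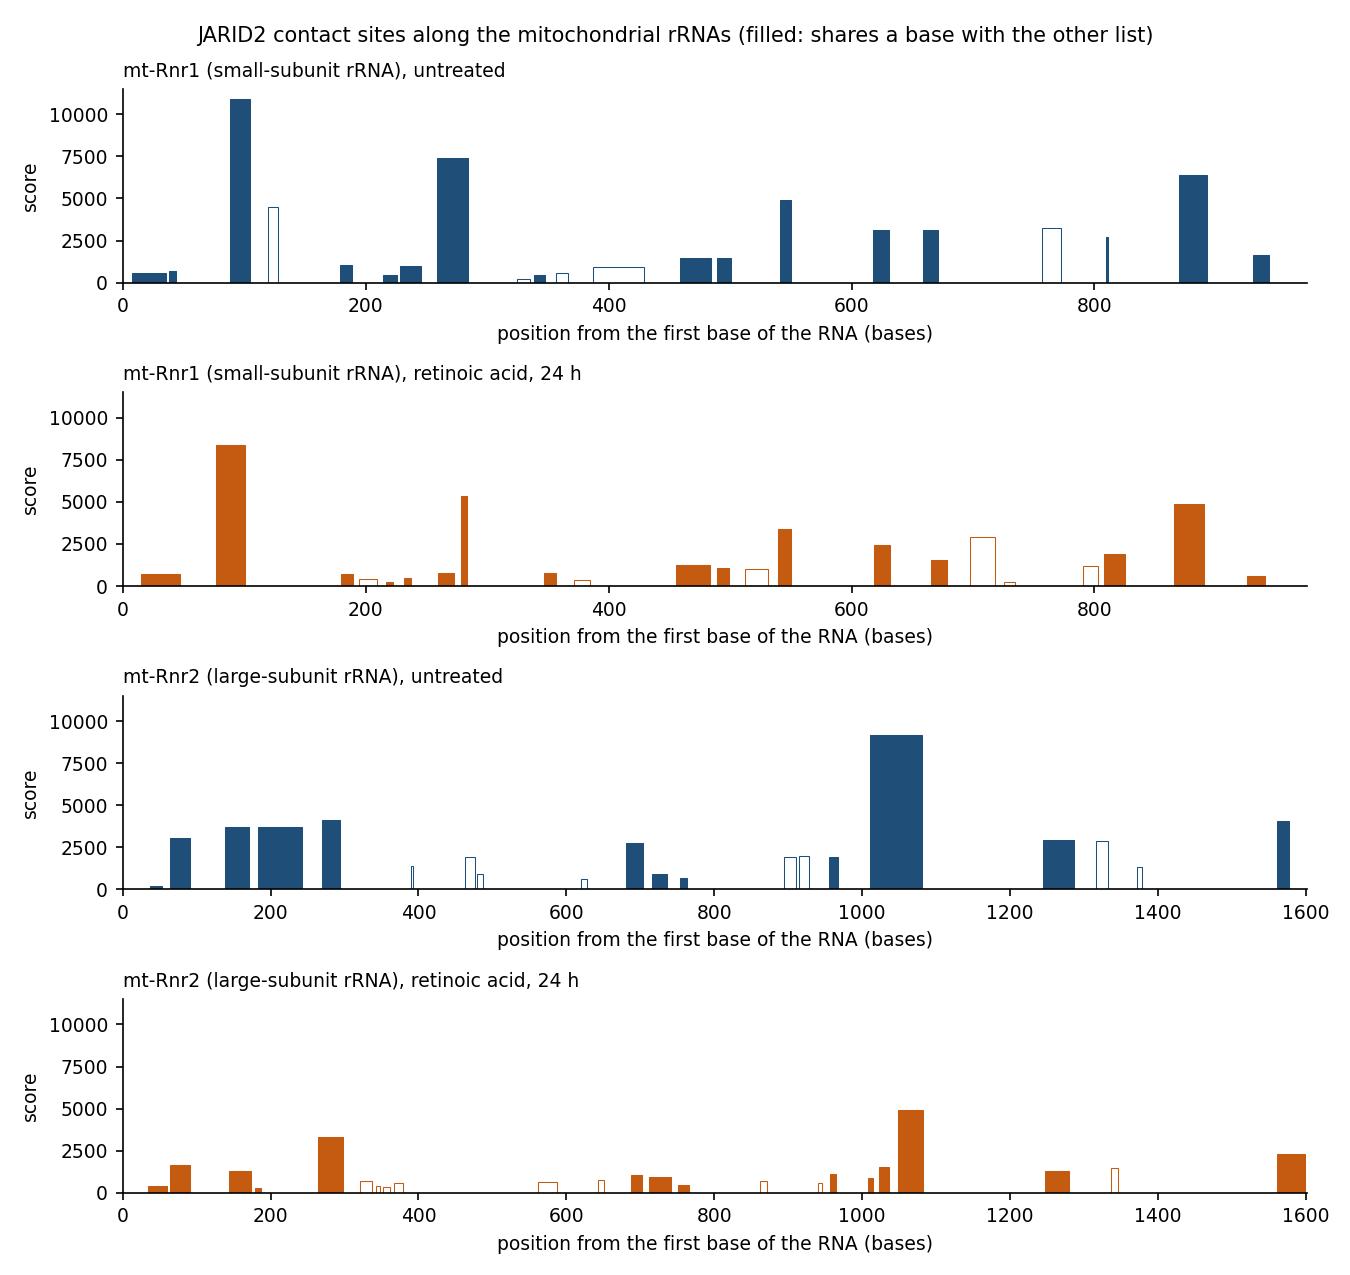
Contact sites along mt-Rnr1 and mt-Rnr2 in each list, with the position from the first base of the RNA in bases on the horizontal axis and the deposited score on the vertical axis, and with bar width equal to site length. Filled bars share at least 1 base with a site of the other list and open bars do not (the narrow untreated bar at bases 390 to 392 of mt-Rnr2 is open). The highest bars stand at bases 89 to 104 of mt-Rnr1 untreated (10884) and 77 to 100 treated (8356), and around bases 1012 to 1081 of mt-Rnr2.

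**Figure D2:**
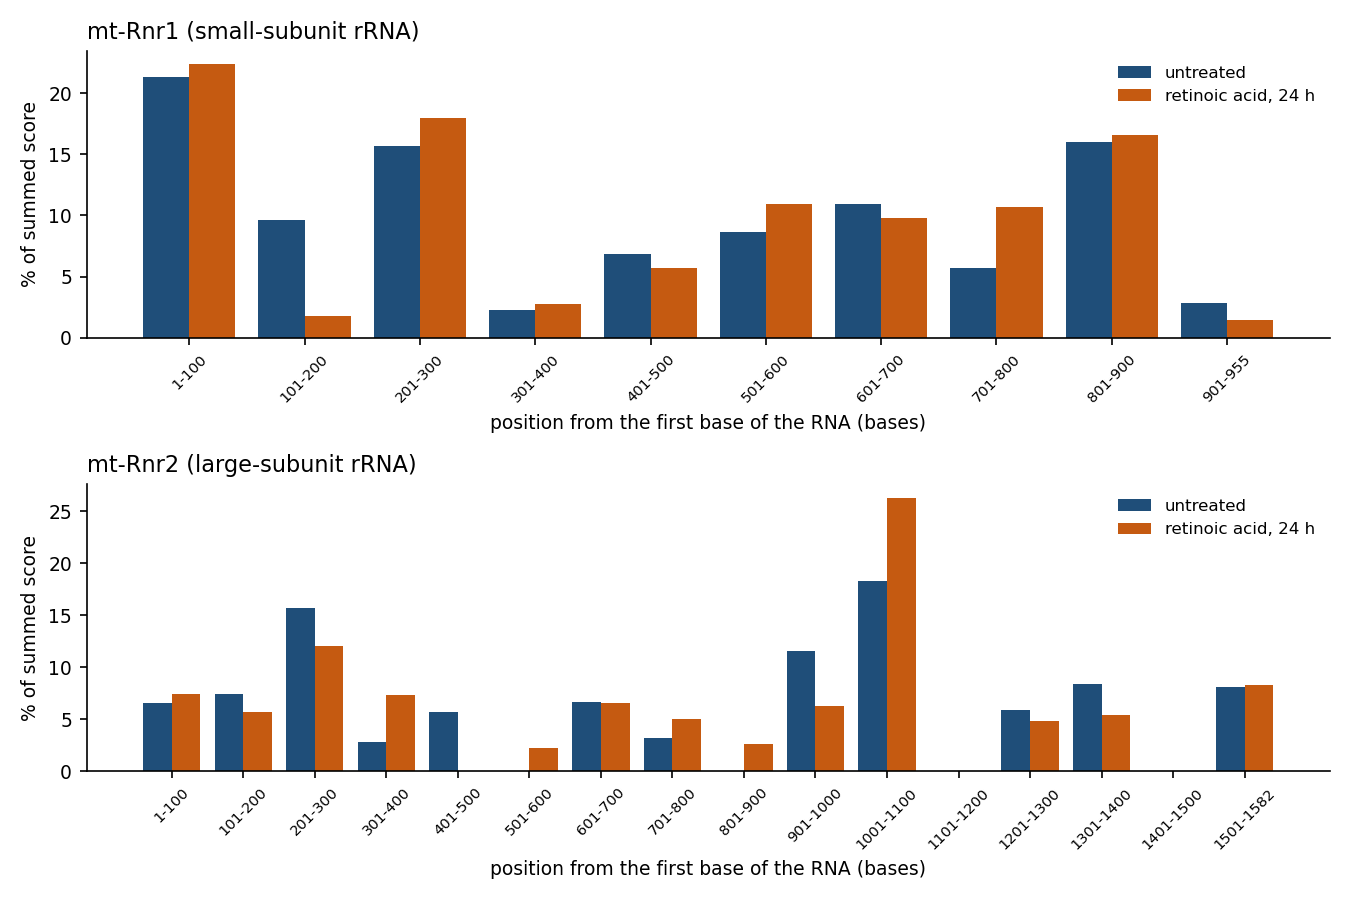
Share of the summed score of each RNA (percent) in 100-base bins by the centre of each site, untreated in blue and treated in orange. Bases 1001 to 1100 of mt-Rnr2 held 18.3% untreated and 26.3% treated, and bases 1101 to 1200 and 1401 to 1500 held no site centre in either list.

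Sites of both lists often overlapped. Of the 41 untreated sites, 28 (68.3%, exact 95% interval 51.9 to 81.9) shared at least 1 base with a treated site, against 6.28% of all untreated sites. Of the 45 treated sites, 30 (66.7%, 51.0 to 80.0) shared 1 with an untreated site, against 27.3% of all treated sites. Recurrence went with score over the whole lists. Among all sites scored at least 224, the lowest score of an rRNA site, 54.0% of untreated and 77.3% of treated sites recurred. Among those scored at least 1000, the shares were 67.5% and 81.4%, and those of the rRNA sites were 71.4% (20 of 28, exact 95% interval 51.3 to 86.8) and 81.8% (18 of 22, 59.7 to 94.8). At scores of at least 1000 the intervals of the rRNA sites held the shares of the whole lists, which include these sites. The intervals count neighbouring sites of 1 list as independent, so they are no test of a difference.

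By RNA, 16 of 21 untreated and 16 of 22 treated sites recurred in mt-Rnr1, and 12 of 20 and 14 of 23 in mt-Rnr2. Recurring sites made up 83.4% of the score of mt-Rnr1 untreated and 84.9% treated, and 74.3% and 77.4% of that of mt-Rnr2. The same share of score was not computed over the whole lists, where recurrence also went with score. These shares are therefore not shown to be particular to the rRNAs. Sites covered much of these RNAs, which by itself gives overlap. In mt-Rnr1 they covered 33.4% of the bases untreated and 34.3% treated, and 53.9% of the untreated bases also lay in treated sites. In mt-Rnr2 they covered 27.7% and 25.5%, and 57.6% of the untreated bases also lay in treated sites.

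Edges rarely matched to the base. Overlapping sites were paired where each was the other's largest overlap, which gave 15 pairs in mt-Rnr1 and 12 in mt-Rnr2. In each RNA, 1 pair had the same start, 1 had the same end and 0 had both. The centres of a pair lay a median of 3 bases apart in mt-Rnr1 (at most 10) and 2 bases apart in mt-Rnr2 (at most 29.5). A median of 10 and 19 bases were common to both sites of a pair.

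Joined where they overlapped, the sites of both lists formed 26 stretches on mt-Rnr1, of which 15 held sites of both lists, 5 untreated sites only and 6 treated sites only. From the 5′ end, the 15 began at chrM positions 77, 146, 248, 284, 298, 328, 408, 525, 559, 609, 687, 728, 877, 935 and 995. On mt-Rnr2 there were 29 stretches, with 12 in both lists, 8 untreated only and 9 treated only. The 12 began at chrM positions 1128, 1157, 1232, 1273, 1358, 1774, 1805, 1844, 2049, 2102, 2338 and 2655. On mt-Rnr2, 5 of them thus lay within the first 300 bases, and no recurring position was found between 1390 and 1774.

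Sites of 1 list only were often close to a site of the other list. In mt-Rnr1 the 5 untreated ones lay 1 to 20 bases from the nearest treated site (1 meaning adjoining), and the 6 treated ones lay 4 to 27 bases from the nearest untreated site. In mt-Rnr2 the distances were 5 to 85 bases for the 8 untreated and 5 to 43 for the 9 treated sites. In mt-Rnr1 the highest scores among them were 4473 at chrM:189-196 and 3248 at 826-841 untreated, and 2889 at 767-787 and 1179 at 860-871 treated. In mt-Rnr2 they were 2862 at chrM:2410-2425 and 1988 at 2008-2021 untreated, and 1501 at 2430-2439 and 769 at 1736-1743 treated. The untreated site at 2410-2425 and the treated site at 2430-2439 lay 5 bases apart, so a neighbouring position was listed in each condition.

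The summed score of mt-Rnr1 was 56885 untreated and 40644 treated, a ratio of 0.714, which is lower in the treated list as deposited but gives equal shares of the list score, 0.864% in both. Over all sites, the summed scores had a ratio of 0.715. mt-Rnr2 had 50103 untreated and 27619 treated, a ratio of 0.551, and its share of the list score was 0.761% and 0.587%. The other plus-strand mitochondrial sites had a ratio of 0.585. mt-Rnr1 thus kept its share of the list score, while mt-Rnr2 and the rest of the plus strand had smaller shares. With 1 list per condition, it was not tested whether these ratios differ beyond the spread between libraries.

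Site by site, most recurring pairs had a lower treated score. Of the 27 pairs on the rRNAs, 23 were lower and 4 higher in the treated list, where 62.2% of all 1420 pairs of the lists and 78.8% of those with an untreated score of at least 224 were lower. A treated score lower by at least 2-fold was found for 8 of 27 pairs (29.6%), against 25.6% of all pairs and 40.2% of pairs with an untreated score of at least 224. A score higher by at least 2-fold was found for 0 of 27, against 11.1% of all pairs and 4.62% of those with an untreated score of at least 224. The median log2 ratio was -0.53 in mt-Rnr1 (range -3.30 to 0.76, 15 pairs) and -0.86 in mt-Rnr2 (-3.73 to 0.89, 12 pairs). It was -0.36 over all pairs and -0.77 over those with an untreated score of at least 224. Relative to the list sums, whose ratio is -0.48 on the log2 scale, the medians were -0.04 and -0.38. A pair leaves out further sites that overlap the same stretch. With all scores of a stretch added per list, 14 of 15 recurring stretches of mt-Rnr1 and 10 of 12 of mt-Rnr2 were lower. Of these, 3 and 4 were lower by at least 2-fold. Stretches were joined on the 2 rRNAs only, so these counts have no share over the whole lists beside them. The lowest log2 ratios of stretches were -1.44 and -3.73, and the medians were -0.53 and -0.79.

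The ratios varied among positions of 1 RNA. The lowest in mt-Rnr1 paired the untreated site chrM:328-353 (7418) with a treated site at 329-341 (754), a ratio of 0.102. The higher treated site in the same stretch, 348-352, is left out by the pairing. With both treated sites added, the stretch had 7418 and 6104, a ratio of 0.823. The next lowest was chrM:1000-1012 near the 3′ end, with 1633 untreated and 602 treated, a ratio of 0.369. The highest was 1.69, at chrM:408-416 untreated (458) and 416-425 treated (774), sites with 1 base in common. The other pair with a higher treated score, chrM:77-104 untreated (588) and 85-116 treated (735), had a ratio of 1.25, but the stretch held another untreated site at 108-112 (679), and with it the ratio was 0.580.

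In mt-Rnr2 the lowest ratio was at chrM:1276-1335, a 60-base untreated site with a score of 3720, where the treated list had a single site of 7 bases at 1273-1279 with 281, a ratio of 0.0755. No other treated site lay in that stretch. Beside it, chrM:1232-1263 untreated (3714) and 1237-1266 treated (1298) gave 0.349, while the next position, at 1358, gave 0.808. The highest ratio was 1.86 at chrM:1130-1146 untreated (224) and 1128-1153 treated (416), the lowest-scored untreated site of the RNA. At chrM:1809-1829 untreated and 1805-1834 treated the scores were 919 and 928, a ratio of 1.01.

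**Figure D3:**
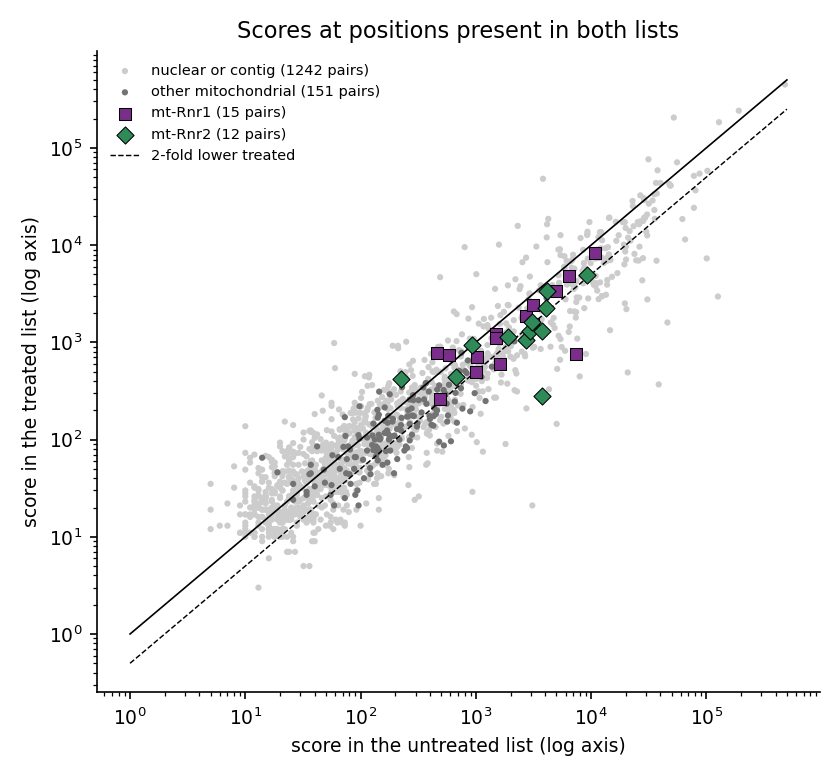
Scores of paired sites in the untreated list (horizontal) and the treated list (vertical), both on log axes, with 15 pairs of mt-Rnr1 as squares, 12 pairs of mt-Rnr2 as diamonds, 151 other mitochondrial pairs in dark grey and the remaining pairs in light grey. The solid line marks equal scores and the broken line a treated score lower by 2-fold. The rRNA pairs lie within the cloud of other pairs of like score, with the pairs at 754 and 281 treated as the lowest squares and diamonds relative to the line.

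At the paired positions, the order of scores along each RNA was similar in both lists. Sites of 1 list only are left out, among them the mt-Rnr1 sites at chrM:189-196 (4473 untreated) and 767-787 (2889 treated). Over the pairs, Spearman's rho of untreated and treated score was 0.73 in mt-Rnr1 (15 pairs) and 0.72 in mt-Rnr2 (12 pairs). It was 0.90 over all 1420 pairs, which span a wider range of scores. Over all pairs with an untreated score of at least 224 it was 0.86, and over those of at least 1000 it was 0.78. The points of an RNA share its libraries and its abundance, so these values are descriptions.

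Long stretches held no site in either list. In mt-Rnr2 the longest were chrM:2472-2654 (183 bases), 2176-2337 (162 bases) and 1859-1954 (96 bases), and in mt-Rnr1 they were chrM:620-686 (67 bases), 197-247 (51 bases) and 895-934 (40 bases). The T content of these stretches lay on both sides of the 26.4% that each RNA has as a whole. It was 29.0%, 31.5% and 14.6% in the 3 stretches of mt-Rnr2, and 29.9%, 15.7% and 20.0% in those of mt-Rnr1. The empty stretches of mt-Rnr2 at 2176 and 2472 lay on both sides of the recurring position at chrM:2338-2379, and the last of them ended at the base before the site at the 3′ end.

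The sites were slightly richer in T than the RNAs, each with 26.4%. The bases in sites had 29.2% T untreated and 29.0% treated in mt-Rnr1, and 26.9% and 29.5% in mt-Rnr2. In mt-Rnr1 the bases in both lists had 33.1% T, those in 1 list only had 24.5% (untreated) and 24.4% (treated), and those in neither had 25.2%. In mt-Rnr2 the bases in both lists had 28.1% T, those of the untreated list only 25.3%, those of the treated list only 32.0%, and those in neither 25.3%. Every site held at least 1 T, where 94.7% to 96.6% of all windows of the same lengths on the same RNA did. Sites held from 1 to 16 T, and a 2-base untreated site at chrM:879-880 in mt-Rnr1 (score 2711) held 1. Across sites, Spearman's rho of score and percent T was -0.12 untreated and -0.13 treated in mt-Rnr1, and -0.61 and -0.20 in mt-Rnr2. For score and number of T, rho was -0.05 and 0.07 in mt-Rnr1, and 0.50 and 0.36 in mt-Rnr2. These values were not tested.

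Besides T alone, 5 short motifs were searched, on the RNA strand only, and the longer runs of T contain the shorter ones. The run TTT was found in 5 of 21 untreated and 5 of 22 treated sites of mt-Rnr1 (23.8% and 22.7%, against 17.7% and 17.6% of windows of the same lengths), and in 7 of 20 and 7 of 23 of mt-Rnr2 (35.0% and 30.4%, against 30.0% and 25.1%). TTAA, which was chosen after the sequences were seen and can share bases with TTT, was found in 7 of 21 and 6 of 22 sites of mt-Rnr1 (33.3% and 27.3%, against 20.2% and 20.0%). In mt-Rnr2 it was found in 5 of 20 and 5 of 23 (25.0% and 21.7%, against 22.5% and 18.4%). TT was found in 66.7% and 72.7% of the untreated and treated sites of mt-Rnr1 (against 58.8% and 59.9%) and in 80.0% and 73.9% of those of mt-Rnr2 (against 62.5% and 58.9%). GT went the other way in mt-Rnr1, with 4 of 21 and 6 of 22 sites (19.0% and 27.3%, against 38.0% and 38.4%), while in mt-Rnr2 it was in 45.0% and 52.2% (against 49.2% and 45.0%). TTTT was in 0 of 21 and 0 of 22 sites of mt-Rnr1 (against 1.31% and 1.27%), and in 1 of 20 and 3 of 23 of mt-Rnr2 (against 7.29% and 5.65%). These shares rest on few sites and were not tested.

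Score and length of a site were compared within each RNA. Spearman's rho of score and length was 0.71 untreated (20 sites) and 0.60 treated (23 sites) in mt-Rnr2, and 0.15 (21 sites) and 0.32 (22 sites) in mt-Rnr1, and the difference between the RNAs was not tested. Median site lengths were 13 bases in both lists of mt-Rnr1 and 16 and 15 bases in mt-Rnr2. In the name column, all sites of mt-Rnr1 in a list shared 1 group name. Those of mt-Rnr2 shared another, which in the untreated list also covered sites up to chrM:2914 in mt-Nd1, and in the treated list also covered 1 site at 1049 in mt-Tv.

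Per base, the rRNAs had more score than the mitochondrial mRNAs. The summed score per base was 59.6 untreated and 42.6 treated in mt-Rnr1, and 31.7 and 17.5 in mt-Rnr2. Over the 13 mRNA genes the median was 4.75 and 2.43, and the highest was 16.4 and 9.66, both in mt-Co1, which encodes a cytochrome c oxidase subunit. Some tRNA genes, which are short, also had high values. In the treated list mt-Tl1 had 30.4 per base, from the site it shares with mt-Rnr2, and mt-Tg had 19.9, both above mt-Rnr2. In the untreated list the highest tRNA value was 25.1, in mt-Tl1, below both rRNAs. The number of sites per 100 bases lay within the range of the mRNA genes for both rRNAs in both lists. It was 2.20 and 2.30 in mt-Rnr1 and 1.26 and 1.45 in mt-Rnr2, against medians of 2.17 and 1.75 over the mRNA genes (ranges 1.15 to 2.85 and 0.771 to 2.42). In the treated list mt-Rnr1 was near the top of that range, and mt-Rnr2 lay below the median in both lists.

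The mRNA genes with the highest summed scores in both lists were mt-Co1, with 25310 untreated and 14924 treated, and mt-Cytb, which encodes cytochrome b, with 6335 and 3483. Their ratios were 0.590 and 0.550, and 11 of the 13 mRNA genes had a lower treated sum (median ratio 0.550, range 0.188 to 2.26). mt-Rnr2, at 0.551, lay at that median, and mt-Rnr1, at 0.714, lay within the range. The treated sum of mt-Rnr2 counts the whole score of the site that runs on into mt-Tl1.

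The flanking tRNA genes, of 68 to 75 bases, held 0 to 2 sites each. mt-Tf had 0 untreated sites and 1 treated site with a score of 237, and mt-Tv had 0 and 1, with 677. mt-Tl1 had 2 untreated sites with a summed score of 1880, and its single treated site, with 2278, was the one that also covered the last bases of mt-Rnr2. Per 100 bases this gives mt-Tl1 2.67 untreated sites, above both rRNAs, and 1.33 treated, while mt-Tf and mt-Tv had 1.47 and 1.45 treated. Of the 22 tRNA genes, 10 held a site untreated and 6 treated. On the opposite strand of the rRNAs the untreated list had 1 site, over mt-Rnr1 with a score of 10, and the treated list had 0. The contacts on both rRNAs were thus almost all on the sense strand.

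**Figure D4:**
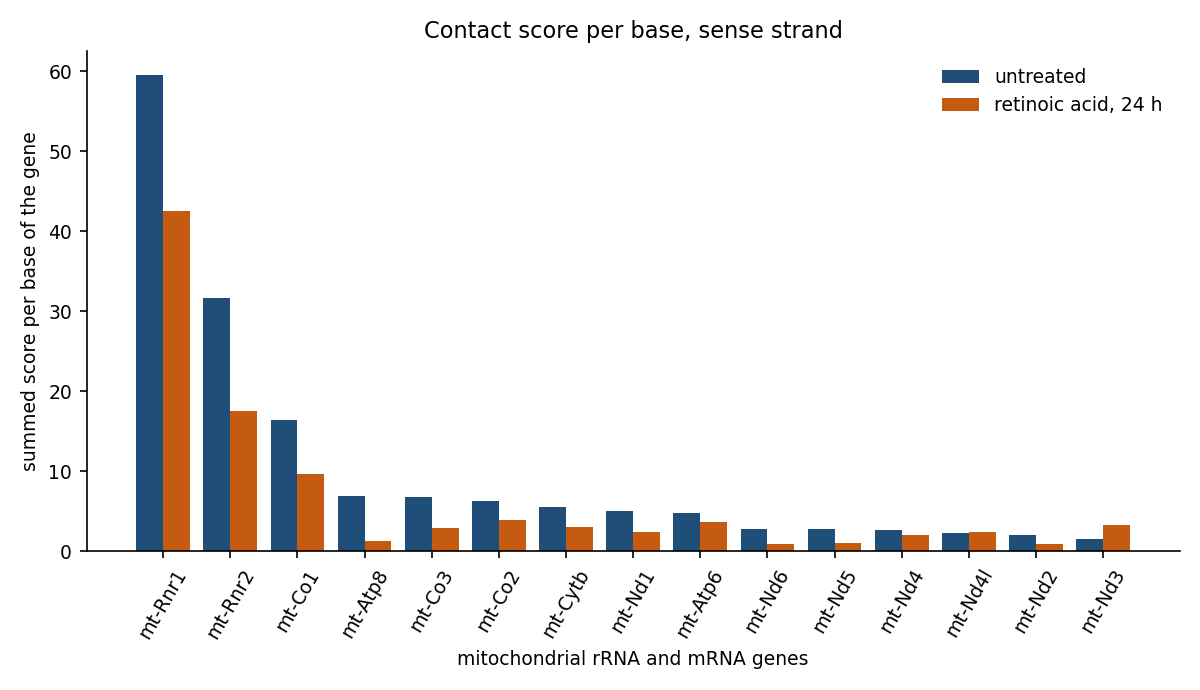
Summed score per base of the gene, on the sense strand, for the 2 rRNA and 13 mRNA genes of the mitochondrial chromosome, untreated in blue and treated in orange. mt-Rnr1 (59.6 and 42.6) and mt-Rnr2 (31.7 and 17.5) stand above mt-Co1 (16.4 and 9.66), the highest mRNA gene, and tRNA genes are not shown.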

How the data were processed

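The authors deposited 1 list of contact sites per condition, which per the labels joins the 3 libraries of that condition, with a position, strand, name and whole-number score per site. The score is used as deposited. The submitters' processing notes name Bowtie and mm9. The role of Bowtie, the site caller, its filters, the depth and the handling of reads that match several places are not stated in the sources at hand.

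The start column was read as counted from 0 and is printed from 1. The headerless lists do not settle this, and a start counted from 1 would make every site 1 base longer. Gene positions and sequences came from GENCODE M21, made for the later build GRCm38, taking the mitochondrial record as the same in both. All 41 untreated sites and the 44 treated sites wholly on the RNAs held a T there, but so did some shifts by a few bases, so this check does not fix the base.

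Overlap needed at least 1 shared base on 1 strand. Pairs, joined stretches and ratios were computed with Python 3.11.15, numpy 2.4.6 and scipy 1.17.1, figures with matplotlib 3.10.9, and the overlap steps were tested on simulated data. The sites named were, for each RNA, the 5 with the highest score per list, the 2 highest and 2 lowest pair ratios, and the 2 highest sites per list without a match. The RNAs and these rules were chosen with earlier results of these data known. No comparison between conditions was tested. Alternatives changed the score minimum, overlap, joining, scaling and bins.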

Additional observations from a re-analysis of the deposited data

How the results depend on the processing

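Each list pools its libraries, so no library could be left out. No paired analysis was possible because the lists carry no values per library. Of 138 recomputed values of 22 results, 129 stayed within their exact 95% interval or, for other values, within 1.5 times, 9 moved by more, and 0 changed direction. Only the log2 ratios could change direction by this rule, so the 0 says nothing of the other results. With sites joined across gaps of up to 10 bases, the treated sites numbered 14 on each RNA, and 2 pairs of mt-Rnr1 were lower by at least 2-fold, against 4 as deposited. Requiring 50% of both sites to be shared left 52.4% of the untreated mt-Rnr1 sites recurring, against 76.2%, and 2 such pairs. Recurrence also fell in the other cases. It went from 72.7% to 50% for treated mt-Rnr1 sites. In mt-Rnr2 it went from 60% to 45% untreated and from 60.9% to 39.1% treated. These other values lay within exact 95% intervals that are wide with so few sites, so they count among the 129. With scores divided by the list sum, 1 pair of mt-Rnr1 and 2 of mt-Rnr2 were lower by at least 2-fold, and with the median ratio of all pairs, chosen after the data were seen, 2 of mt-Rnr1 were. The share of all pairs past 2-fold was not recomputed with these scalings. Without its highest site, the highest bin of treated mt-Rnr2 held 14.7% of the score. Minimum scores of 10 and 100 removed no rRNA site, so these settings left every value as it was. Taking only sites wholly inside the RNA likewise changed nothing in mt-Rnr1. These unchanged values are counted among the 129, so that count overstates how far the results were tried. In mt-Rnr2, leaving out the treated site that runs into mt-Tl1 moved the log2 ratio of summed scores from -0.86 to -0.98. The scaling of the lists decides whether mt-Rnr1 appears lower after treatment, with a log2 ratio of its summed scores of -0.49 as deposited and -0.00043 relative to the list sums. That change lay within 1.5 times and also counts among the 129.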
